A study of Drosophila melanogaster with 2 samples.

Results

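Exonic peaks outside promoters were defined by their summit, the base that the deposited list marks in each peak of an HmgZ-eGFP chromatin immunoprecipitation (ChIP-seq). The summit lay in an exon and more than 250 bp from every annotated transcription start site (TSS). The peaks were chosen by the position of the summit in the Ensembl annotation, with transposable elements and pseudogenes left out, and not by signal. There were 258 of them among the 6844 peaks that passed the irreproducible discovery rate (IDR) threshold, a share of 3.77% (95% Wilson interval 3.34 to 4.25). Each summit was counted under 1 exon kind, with 5' UTR before coding exon, 3' UTR and exon of a non-coding gene where transcripts overlapped. The result was 78 peaks in 5' UTRs, 22 in coding exons, 79 in 3' UTRs and 79 in exons of non-coding genes. They fell in 236 host genes. In 199 of the 258 the marked summit was the centre of the region, and the median width was 404 bp. For these members, distances from the summit are distances from that centre.

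The material was whole Drosophila melanogaster embryos of mixed sex, 4 to 24 h old, from 1 transgenic line that stably expresses HmgZ with green fluorescent protein at its C-terminus. The antibody is labelled HmgZ, and chromatin was sonicated to 200 to 800 bp. The age is that of the sample source, since a separate age label gives hours far beyond embryonic life and was not used. The single group comprised 2 biological replicates, which the labels number 1 and 3, and 1 control alignment served both. Neither a second condition nor an untagged ChIP was analysed here, so peaks were compared with other peaks and with the bases available, and no statistical test was run. Although a description field names both samples as input, their antibody, assay and peak files are those of a ChIP, as which they were treated. Every embryonic cell type and stage of that window contributed to each sample. The deposited lists hold 30000 regions per replicate and no read counts, so depth is unknown, and intervals cover counting error only.

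HmgZ belongs to the chromatin proteins built on an HMG box (named for high mobility group proteins), a fold that binds the minor groove and bends DNA with little preference for sequence. Exons carry the parts of a gene kept in the mature RNA. A 5' UTR follows the TSS, a coding exon specifies protein, and a 3' UTR runs from the stop codon to the cleavage site at which the poly(A) tail is added. Long non-coding RNA genes (lncRNA) have exons without a reading frame, and some are the precursors of microRNAs. A base in an exon of one transcript may be an intron of another, and a base in a 3' UTR may lie in front of the next gene.

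Sequence at the summit differed between the strongest exonic peaks. The 30 bases around the summit are shown for the strongest member of each kind among those on 5 of the 6 arms, on the plus strand of dm6, to set A- and T-rich summits beside others. Base sequence is from the RefSeq copy of that assembly. The lines give ph-p (5' UTR) at chrX:2137940-2137969, lncRNA:Vinr (non-coding) at chrX:12751317-12751346, scrib (coding) at chr3R:26566967-26566996 and CG7872 (3' UTR) at chrX:15579779-15579808.
ph-p: tacgtattgagttgatttattaagttttaa
lncRNA:Vinr: aaattttgatatatgccaatcccttacatg
scrib: ttgcaaacaatcaccaacagcagccacacc
CG7872: acaaaaaaagcacgccacattcgcgtgttt
Over 100 bp to each side of the summit, G+C was 28.4% at ph-p, 29.9% at lncRNA:Vinr, 47.8% at scrib and 46.3% at CG7872. The first of these peaks lies in a gene for a Polycomb protein, and scrib encodes a scaffold of cell polarity.

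A short match to the core of the CTCF motif was found at 17 of the 258 summits. CTCF is a zinc finger protein that binds insulators and domain borders in flies. The match was read as AGNNGGCGC on either strand within 100 bp of the summit. Examples of each kind are shown because they place the match in UTR, reading frame and non-coding exon alike, with the match in capitals and each line on the strand that reads in this direction. The 5' UTR lines are velo (a SUMO protease) at chr3L:6752366-6752395, minus strand, and ush (a partner of GATA factors) at chr2L:490208-490237, minus strand. The coding lines are klar (nuclear migration) at chr3L:506135-506164, minus strand, and Pde1c (a cyclic nucleotide phosphodiesterase) at chr2L:11816558-11816587, minus strand. The 3' UTR lines are CG9166 at chr3L:1352351-1352380, minus strand, and Hr4 (a nuclear receptor of the ecdysone response) at chrX:2006000-2006029, minus strand. The non-coding lines are lncRNA:CR43838 at chrX:20760526-20760555, plus strand, and lncRNA:CR44717 at chr3L:11248531-11248560, plus strand.
velo: atgggcccgccAGGGGGCGCtcgcgtttcg
ush: gctttccgcatAGATGGCGCcccagaaagg
klar: cgctgtgagatAGAGGGCGCtgccacggtg
Pde1c: gcggagccggcAGATGGCGCtgcggcctaa
CG9166: ttttcagaaatAGGTGGCGCtagcgtcgct
Hr4: tctctaaatacAGGTGGCGCcactgaggaa
lncRNA:CR43838: gcgccctcatAGGTGGCGCtttcatgagaa
lncRNA:CR44717: tctggccgctAGGTGGCGCcacgcatgccg
The centre of the match was 0 bp from the summit in Pde1c, 2 bp in klar and Hr4 and 3 bp in CG9166 and lncRNA:CR44717. Of the 17 members with a match, 8 had it within 25 bp of the summit and 11 within 50 bp. The counts expected from matches spread evenly over the window were not worked out.

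Few of the peaks were exonic compared with the exonic sequence available, and the kinds differed widely. Exons more than 250 bp from a TSS made up 22.8% of determined bases on the 6 arms analysed, against the 3.77% of peaks. The 22 coding peaks were 0.321% of peaks (0.212 to 0.486), whereas such coding bases were 15.6% of bases. The 79 peaks in 3' UTRs were 1.15% of peaks (0.927 to 1.44) and their bases 4.76%. Peaks in 5' UTRs were 1.14% (0.914 to 1.42), with bases at 1.33%. Exons of non-coding genes held 1.15% of peaks and 1.07% of bases. The kinds thus ran from a share of peaks far under that of the bases in coding exons to nearly equal shares in 5' UTRs and non-coding exons.

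Promoters, taken as 250 bp to each side of a TSS, held 4004 of the peaks, which lowers every other share. Among the 2840 peaks outside promoters, 9.08% were exonic, against 24.6% of the bases outside promoters. Coding exons then had 0.775% of peaks and 16.9% of bases, and 3' UTRs 2.78% and 5.15%. Non-coding exons had 2.78% of peaks and 1.15% of bases, and 5' UTRs 2.75% and 1.44%. Per megabase there were 55.4 peaks in non-coding exons, 43.9 in 5' UTRs, 12.4 in 3' UTRs and 1.05 in coding exons, beside 33.8 in introns, 18.9 between genes and 404 in promoters. Coding sequence therefore had the fewest peaks per base of the 7 classes, and non-coding exons the most after promoters.

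The deposited pooled list ranks 30000 regions by signal, and the exonic share was higher at weaker ranks. It was 2.93% among the strongest 3000 (ranks 1 to 3000) and 24.5% among the weakest (ranks 27001 to 30000). The coding share was 0.40% in the first of these bins and 16.0% in the last, close to the 15.6% of bases. For 3' UTRs it was 0.633% and 4.83%, with 4.76% of bases. In 5' UTRs the values were 0.933% and 2.07%, and in non-coding exons 0.967% and 1.63%. Promoters held 62.7% of the first bin and 12.7% of the last, which changes every other share. Among summits outside promoters, the 5' UTR share was 2.50% in the first bin and 2.37% in the last. For non-coding exons it was 2.59% and 1.87%, so neither kind rose on this measure. Coding exons had 1.07% and 18.3%, and 3' UTRs 1.70% and 5.53%. Of the 23156 regions below the IDR threshold, 1816 had coding summits, or 7.84%. The weak end of the list thus held coding and 3' UTR summits at about the share of their bases, and the strong end did not.

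**Figure D1:**
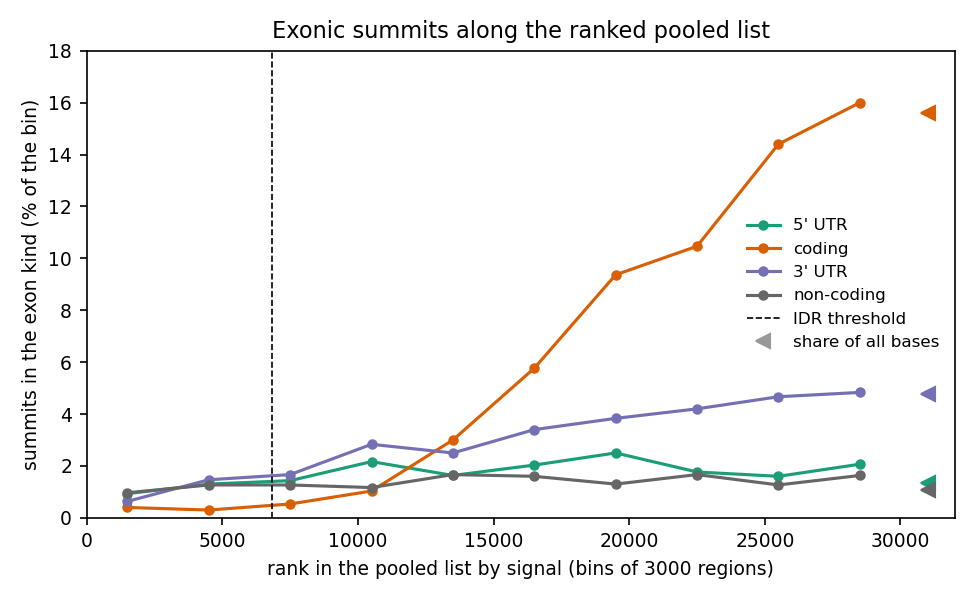
Share of summits in each exon kind outside promoters (vertical axis, % of 3000 regions) along the pooled list ranked by signal (horizontal axis, strongest at left); triangles at the right edge give the share of all bases, and the dashed line is the IDR threshold. The coding line runs from 0.40% in the leftmost bin to 16.0% in the rightmost, while the lines for 5' UTRs and non-coding exons stay under 3%.

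The members were spread over all arms. Arms 2L, 2R, 3L and 3R had 41, 45, 51 and 65 of them, the X chromosome 54 and chromosome 4 had 2. The X chromosome held 20.9% of the members, against 16.4% of all peaks and 18.6% of exonic bases outside promoters.

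Most of the members were found in each replicate. A region of both replicate lists had its summit within 100 bp of 238 of the 258 (92.2%, 88.3 to 94.9), and the same was true of 94.1% of all 6844 peaks, so the members' share is near the background. By kind, 72 of 78 peaks in 5' UTRs, 20 of 22 coding, 75 of 79 in 3' UTRs and 71 of 79 in non-coding exons were matched. In 226 of the 238 the replicates' own summits fell in the same exon kind. The summit of the matched region was a median of 10 bp away in replicate 1 and 11 bp in replicate 3. Of the 251 members matched in replicate 1, the replicate's own summit lay in a promoter for 3 and in an intron for 5. Of the 245 matched in replicate 3, these numbers were 1 and 4. The remaining 20 members were matched in 1 replicate list only, among them the coding peaks of Brd7-9 (replicate 3) and Socs36E (replicate 1).

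Signal is the authors' value per region, given here as a multiple of the median of the replicate's own list. Exonic peaks had medians of 2.73 in replicate 1 and 3.08 in replicate 3 (n = 238), against 3.06 and 3.66 for promoter peaks (n = 3765) and 2.97 and 3.49 for all peaks (n = 6443). The log2 ratio of the median of replicate means was -0.25 over promoter peaks. Exonic peaks were under promoter peaks in both replicates, and 96 of the 258 (37.2%) ranked among the strongest 3422 of the 6844. Being under promoter peaks was not particular to them. Intronic peaks had medians of 2.87 and 3.20 (n = 1760) and intergenic peaks 2.82 and 3.44 (n = 680). Among the strongest 3422 were 44.6% of all 1860 intronic and 48.1% of all 722 intergenic peaks. Coding peaks had medians of 3.17 and 3.57 (n = 20), 5' UTR peaks 2.80 and 3.25 (n = 72), non-coding peaks 2.81 and 3.00 (n = 71) and 3' UTR peaks 2.51 and 2.87 (n = 75). Coding exons thus had the fewest peaks and, in both replicates, the highest median of the 4 kinds, whereas 3' UTRs had the lowest. All of these peaks had passed the IDR threshold. Quartiles of the replicate means were nearly the same in coding peaks (2.45 and 4.55) and 5' UTR peaks (2.44 and 4.42). These 3422 held 12 of 22 coding peaks and 23 of 79 in 3' UTRs. The ratio of replicate 3 to replicate 1 had a median of 1.14 among the members and of 1.18 among all peaks.

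**Figure D2:**
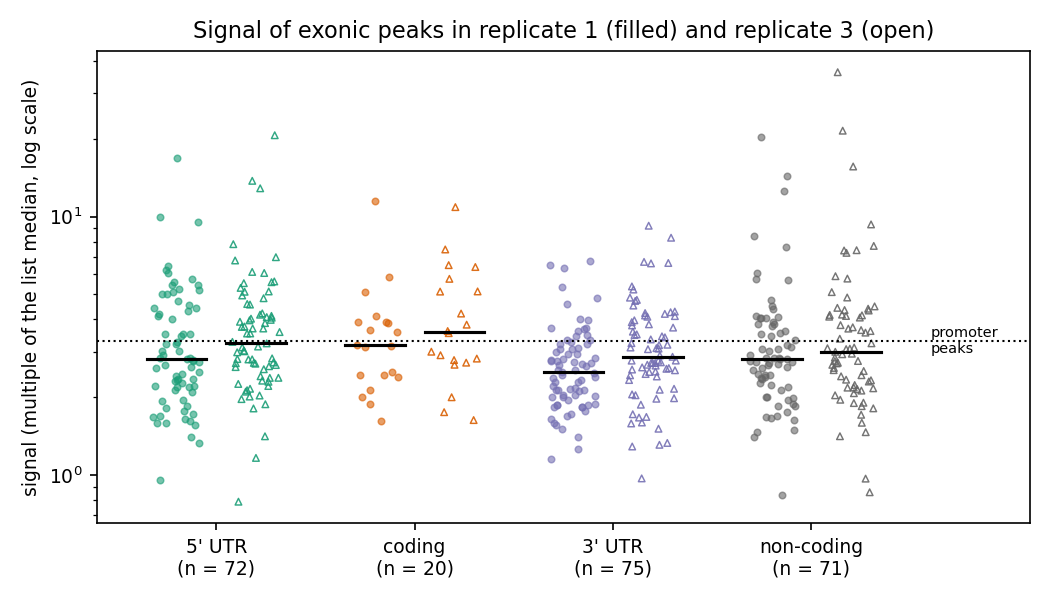
Signal of each exonic peak matched in both replicates (vertical axis, multiple of the replicate list's median, log scale), by exon kind, with replicate 1 as filled circles and replicate 3 as open triangles; black bars are medians and the dotted line is the median of promoter peaks (3.31, mean of replicates). The kinds overlap over most of their range, and the medians run from 2.51 for 3' UTRs in replicate 1 to 3.57 for coding exons in replicate 3.

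Peaks in 5' UTRs lay mostly a short way from a start. Their distance to the nearest TSS had a median of 527.5 bp, and 67 of 78 (85.9%) were within 1000 bp, whereas 66.3% of 5' UTR bases outside promoters were. Of these summits 51 were in a first exon. In 44 of 78 (56.4%, 45.4 to 66.9) the summit was intronic in another transcript of the annotation, against 39.2% of such bases. A further thresholded peak had its summit within 1000 bp of 25 of them (32.1%), of which 15 had a promoter peak as nearest neighbour, and for all peaks this was 1371 of 6844. The distance to the end of the host gene had a median of 6777 bp, against 9890 bp for 5' UTR bases outside promoters. Within 1000 bp of that end were 0 of 78, which allows a share of up to 3.85%, and 1.87% of the bases.

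The strongest peak in a 5' UTR was in ph-p at chrX:2137706-2138096, 416 bp from the start of a gene that encodes Polyhomeotic, a subunit of Polycomb repressive complex 1. Its signal was 16.8 in replicate 1 and 20.6 in replicate 3. The next was in dnc, the cAMP phosphodiesterase known from learning mutants, with 9.50 and 13.8. Peaks in l(2)k01209, with 9.995 and 12.9, and in Raf, a kinase of the receptor tyrosine kinase pathway, with 5.42 and 7.82, followed. The sixth-strongest, with 5.11 and 6.97, was in sequence shared by chk and CG45092. Mef2, a transcription factor of muscle development, had 6.06 and 6.05. Apart from Mef2, all of these were higher in replicate 3.

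Coding peaks were few and can be named in full. The strongest lay in the last exon of otp, a homeobox gene, at chr2R:20884465-20884726, with signals of 11.5 in replicate 1 and 10.9 in replicate 3. It was followed by scrib at chr3R:26566829-26567070 with 5.82 and 7.46, by CG10357 with 5.12 and 5.75 and by InR, the insulin receptor, with 3.89 and 6.38. CG15531 had 4.14 and 5.13, and klar had 3.90 and 5.14. These 6 were above the coding median of their replicate in each case, which follows largely from their choice by highest mean percentile.

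The other coding members were CG2121, Exn, bif with 2 peaks, CG11905, CG1628, Pde1c, l(3)mbn, CG44812, btsz, Tsp42Ee, Gbs-70E, CG42327, CG4822, Brd7-9 and Socs36E. Between replicates the least even was CG11905, with 2.51 in replicate 1 and 6.49 in replicate 3. Of the 22 summits, 4 were intronic in another transcript and 5 were in a last exon. The median distance to the nearest TSS was 2800.5 bp, and 6 were within 1000 bp of one. The median distance to the gene end was 3624 bp, against 1847 bp for coding bases outside promoters. Within 1000 bp of that end were 6 of 22 (27.3%, 13.2 to 48.2) and 29.6% of the bases.

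Peaks in 3' UTRs lay at distances from the gene end close to those of 3' UTR bases in general. The summit was a median of 493 bp inside the end of the host gene (quartiles 244.5 and 1084.5 bp), and the median for all such 3' UTR bases was 543 bp. Within 100 bp of the end were 9 of 79 (11.4%, 6.11 to 20.3), against 15.9% of bases, and within 1000 bp 58 (73.4%, 62.8 to 81.9), against 65.6%. The nearest end of any transcript of the host was closer, at a median of 206 bp. Of the 79 summits 78 lay in a last exon, and 63 were over 1000 bp from every TSS. A further peak within 1000 bp was found for 5 of 79 (6.33%), against 1371 of all 6844 peaks.

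**Figure D3:**
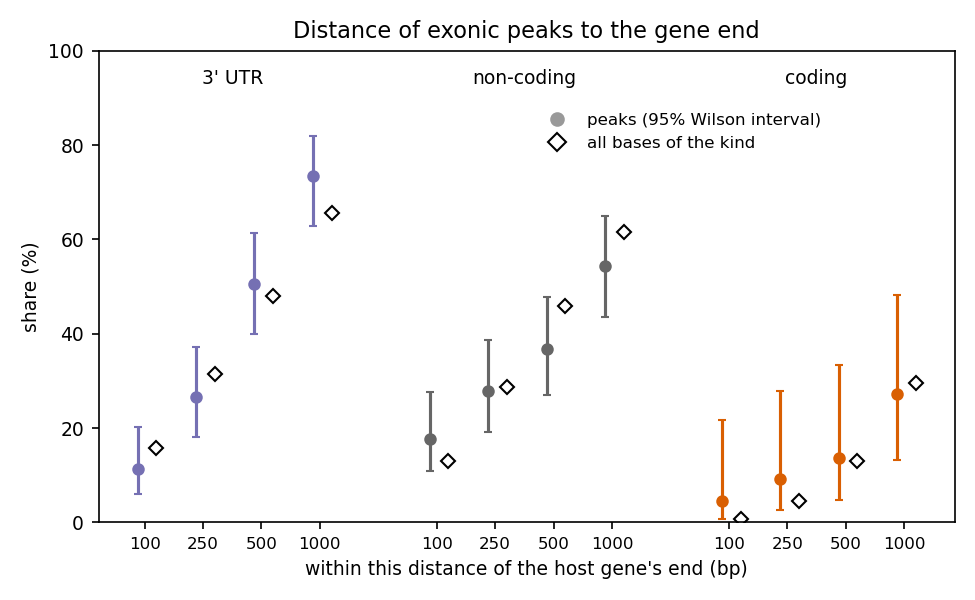
Share of peaks (filled circles, with 95% Wilson intervals) and of all bases of the kind outside promoters (open diamonds) within 100, 250, 500 and 1000 bp of the host gene's end (horizontal axis), for 3' UTRs (n = 79), non-coding exons (n = 79) and coding exons (n = 22). In 3' UTRs and non-coding exons each interval holds the share of the bases.

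Just beyond the gene end the picture was different. Of the summits outside promoters, counted by distance to the nearest protein-coding gene end, 10 lay in the last 100 bp of the gene, of which 9 were in 3' UTRs, and 10 in the 100 bp before. From 0 to 99 bp past the end there were 29, then 57 at 100 to 199 bp, 49 at 200 to 299 bp and 27 at 300 to 399 bp. Of the 57, 48 were intergenic. Counts per bin thus changed at the annotated end itself. They were not divided by the bases in each bin, and the distance of past-end summits to the next gene's TSS was only limited from below, by the 250 bp rule.

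**Figure D4:**
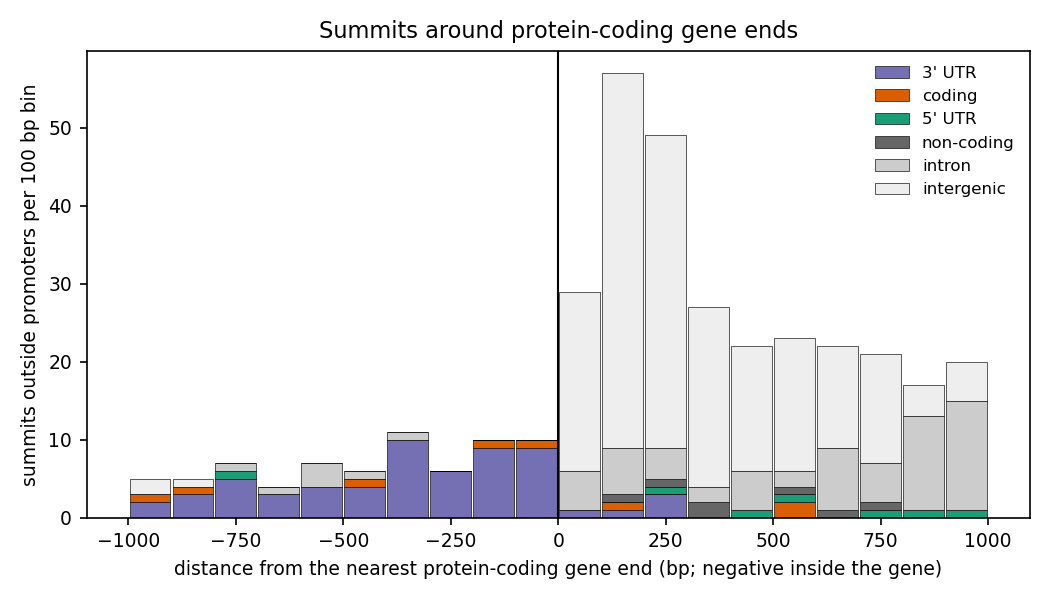
Summits outside promoters per 100 bp bin (vertical axis) by distance from the nearest protein-coding gene end (horizontal axis, negative before the end), stacked by class. Bins before the end hold 4 to 11 summits, mostly in 3' UTRs, and the bin 100 to 199 bp past the end holds 57, mostly intergenic. The bins from -1000 and from -900 bp include 2 and 1 intergenic summits, so positions before the end are not always inside the gene.

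The strongest peak in a 3' UTR was in CG7872 at chrX:15579684-15579913, 63 bp before the gene end, with signals of 6.47 in replicate 1 and 9.22 in replicate 3. Next were stas with 6.36 and 6.59 and by, which encodes the focal adhesion protein tensin, with 4.85 and 8.29. CG8206 had 5.34 and 6.68, with its summit 13 bp before the end. In sv, a Pax gene on chromosome 4, the summit was 2 bp before the end, and the signal was 6.76 and 4.86. There the exon overlaps one of Cals on the other strand, so the peak cannot be given to 1 gene. The peak of tio, a zinc finger gene, had 3.62 and 6.62 and lay 1120 bp from the end. Of these 6, sv alone was higher in replicate 1.

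Of the 79 non-coding members, 72 lay in 61 genes named lncRNA and 7 in 7 genes named as antisense RNAs. A gene shorter than 250 bp counts wholly as promoter, so short genes such as those of tRNAs could hold no member. Summits were a median of 837 bp from the gene end, against 597 bp for bases, and 22 of 79 (27.8%, 19.2 to 38.6) were within 250 bp of it, against 28.7% of bases. They were a median of 626 bp from the nearest TSS, and 50 (63.3%) were within 1000 bp, against 59.0% of bases. In 51 the transcripts that hold the summit had a single exon, and 16 lay under a gene on the other strand. Peak lists carry no strand.

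The member of highest signal was found here. The peak in lncRNA:Vinr at chrX:12750857-12751601 had 20.3 in replicate 1 and 36.2 in replicate 3. Nearby on the same arm, lncRNA:CR44619 had 2 peaks, the stronger with 14.4 and 21.5 and the other, 56 bp from the gene end, with 5.68 and 7.70. In lncRNA:CR46035 the signal was 12.5 and 15.6, and this gene lies in osa on the other strand. The values were 8.45 and 7.24 in lncRNA:CR44363 and 7.60 and 7.40 in lncRNA:CR46265. The first 4 of these were higher in replicate 3 and the last 2 in replicate 1.

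Some non-coding genes held several members, which then share a host and are not independent. The host lncRNA:CR43334 had 6, more than any other gene, and contains mir-ban, the gene of the growth-promoting microRNA bantam. In lncRNA:CR43459, which contains mir-34 and mir-277, there were 3, and in lncRNA:CR43626, which contains mir-282, there were 2. Signal in these 3 hosts, averaged over replicates, lay between 1.90 and 5.37 in the members matched in both. They were thus moderate peaks beside the strongest of the class. Having several members was not particular to hosts of microRNAs. The genes lncRNA:CR44603, lncRNA:CR44619 and lncRNA:CR45531 had 2 each and contain no microRNA gene. Protein-coding genes such as spen and eas had 2 as well.

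Base composition varied with the kind. Median G+C over 100 bp to each side of the summit was 51.2% in coding peaks, 45.0% in 5' UTRs, 39.8% in 3' UTRs and 37.8% in non-coding exons. Windows of that size tiled over the same exon kinds outside promoters had 52.2%, 44.8%, 34.8% and 43.3%. Peaks in 3' UTRs were thus richer in G+C than 3' UTRs in general, those in non-coding exons poorer, and the other kinds close to their windows. Over all exonic peaks the median was 42.3%, against 39.8% in promoter peaks and 38.8% in all peaks.

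The CTCF core match shown above was present in 6.59% of exonic peaks (4.15 to 10.3). It was in 1.93% of windows tiled over the same exon kinds, 3.67% of all peaks and 2.87% of promoter peaks. Here and below, a window share set beside all exonic peaks is the mean of the kinds' window shares, weighted by their numbers of peaks. By kind it was in 4 of 22 coding peaks (18.2%, windows 3.78%), 5 of 79 in 3' UTRs (6.33%, windows 1.03%), 4 of 78 in 5' UTRs (5.13%, windows 2.46%) and 4 of 79 in non-coding exons (5.06%, windows 1.81%). The share was higher than in windows in each kind, on counts of 4 or 5. In 5' UTRs the interval (2.01 to 12.5) held the window share. In non-coding exons its lower limit (1.99) was just above that share. It was 8.45% in intergenic peaks and 3.12% in intronic peaks. The coding members with a match were otp, CG10357, klar and Pde1c. In 3' UTRs they were CG9166, raskol, Hr4, CG4004 and pros, which encodes a homeodomain protein of neural precursors. Mef2, velo, ush and hep, a kinase of the JNK pathway, had it in 5' UTRs. All 17 were matched in both replicates, with replicate means from 1.61 in hep to 11.2 in otp and a median of 3.71.

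Motifs typical of housekeeping promoters were rarer than in promoter peaks. The DNA replication-related element (DRE), TATCGATA, was in 3 of 258 exonic peaks (1.16%, 0.396 to 3.36), against 11.8% of promoter peaks, 7.26% of all peaks and 0.370% of tiled windows. All 3 were in 3' UTRs, of exu, CG5151 and CG13454. The M1BP motif GGTCACACT was in 1 (0.388%), in the 3' UTR of roh, against 8.07% of promoter peaks and 0.0495% of windows. Ohler motif 6 was in 1 (0.388%), against 2.52% and 0.170%. CGATA, the BEAF-32 motif, which is contained in the DRE, was in 35.3% of exonic peaks, 48.9% of promoter peaks and 22.0% of windows. The other peaks outside promoters had low shares of the DRE, the M1BP motif and motif 6 too. The DRE was in 0.538% of intronic and 1.66% of intergenic peaks, the M1BP motif in 0.161% and 0.693%, and motif 6 in 0.323% and 0.277%. CGATA was in 26.0% of intronic and 27.7% of intergenic peaks, both under its share in exonic peaks (29.7 to 41.3).

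Other motifs differed by kind. GAGAG, bound by GAGA factor, was in 44.9% of 5' UTR peaks (34.3 to 55.9), against 26.3% of 5' UTR windows, 29.8% of intronic peaks and 22.6% of promoter peaks, and in 18.2% of coding peaks against 22.9% of coding windows. TGCATACTT, part of the Su(Hw) insulator motif, was in 5 exonic peaks (1.94%, 0.831 to 4.46), against 2.49% of intergenic peaks, 0.968% of intronic peaks, 0.847% of all peaks and 0.306% of windows. These were in Mob2, Vha26, Wdr62, lncRNA:CR44517 and lncRNA:CR42736. The letters AGATAA were in 17.4%, against 18.1% of intronic peaks, 14.3% of intergenic peaks, 13.4% of all peaks and 10.7% of windows. Zinc finger proteins of the GATA family bind them. The poly(A) signal AATAAA was in 36.0% of exonic peaks and 35.0% of windows, and in 36.7% of 3' UTR peaks (26.9 to 47.7) against 46.4% of 3' UTR windows. TATAAA was in 22.9% and 23.2%. The remaining values were, in exonic peaks and windows, 32.9% and 28.1% for TCAGT (initiator), 14.3% and 11.8% for ACAATG (Sox), 8.91% and 8.32% for CAGCTG (E-box), 4.26% and 3.83% for CTTTGAT (TCF) and 3.88% and 4.06% for CAGGTA (Zelda). Matches are to letters and do not show that a factor was bound.

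**Figure D5:**
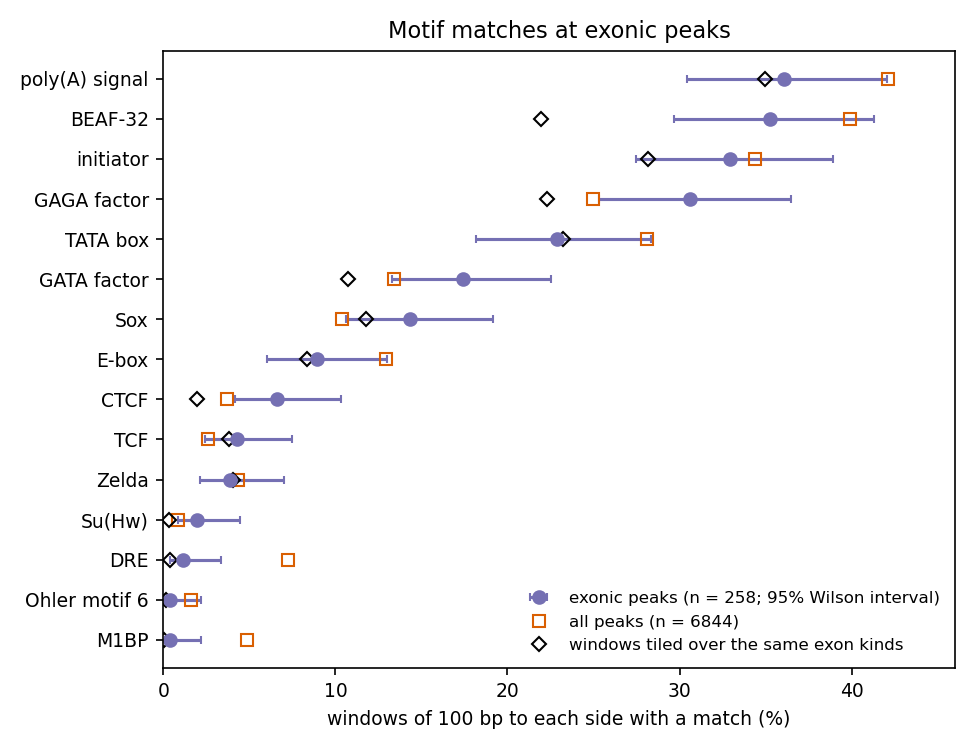
Percent of summits with a motif match within 100 bp (horizontal axis) in exonic peaks (filled circles, with 95% Wilson intervals), all peaks (open squares) and windows tiled over the same exon kinds (open diamonds), for 15 motifs. Window shares are means over the kinds, weighted by the number of exonic peaks of each kind. The DRE and M1BP are at 1.16% and 0.388% of exonic peaks against 7.26% and 4.85% of all peaks, and CTCF at 6.59% against 3.67%.

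Genes of known developmental and housekeeping groups were hosts in a small number of cases. Of 16074 genes with exonic bases outside promoters, 236 (1.47%) were hosts. Among 14 gene lists, ribosomal proteins had 1 host of 85 (RpS26, 3' UTR), Hox genes 1 of 8 (Antp, 3' UTR), Polycomb genes 1 of 19 (ph-p), insulator genes 1 of 17 (su(Hw), 5' UTR), heat shock genes 1 of 25 (Hsp22, 5' UTR) and ecdysone response genes 1 of 13 (Hr4, 3' UTR). Immediate-early and stress regulators had 1 of 22 (cbt, 5' UTR) and cell cycle genes 2 of 36 (Cdk4 and E2f1, 5' UTR). Translation factors, segmentation genes, Trithorax genes, Notch pathway genes, actins and tubulins, and dosage compensation genes had 0 hosts among 53, 24, 18, 24, 20 and 8 members. Counts of 0 to 2 are too small to set a list apart.

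Among these hosts ph-p, given above, had the highest signal. RpS26, a ribosomal protein, had 2.12 in replicate 1 and 3.50 in replicate 3. Antp, the Hox gene of the thorax, had 1.83 and 4.12 at 12028 bp from its most distal end. The insulator protein gene su(Hw) had 3.21 and 3.23, and cbt, a transcription factor gene, 5.005 and 3.87. Hsp22 had 1.41 and 2.71, E2f1 2.93 and 1.41, and Cdk4 2.76 and 2.30. Values for Antp and E2f1 differed between replicates by more than those for su(Hw).

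The 250 bp limit divides a continuous range of distances. Just inside were CG1628 (coding, 261 bp from a TSS, 3.18 in replicate 1 and 3.54 in replicate 3), CG31220 (5' UTR, 266 bp, 2.68 and 2.25) and lncRNA:CR45352 (271 bp, 4.41 in replicate 1 and not matched in replicate 3). Just outside were Afti (248 bp, 3.08 and 1.72), bip1 (247 bp, 3.20 and 1.04) and Itpr (241 bp, 2.86 in replicate 1 and not matched in replicate 3). The pairs of replicate values overlap between the sides in replicate 1, and in replicate 3 the 2 outside were under the 2 inside.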

How the data were processed

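ChIP-seq peak lists of 2 replicates of HmgZ-eGFP embryos were analysed on dm6. Per the files' headers and accompanying descriptions, the authors called regions per replicate and on pooled reads with 1 control alignment, and derived the thresholded list by IDR. Neither aligner nor caller is given in the sources used here. A deposited signal value and a deposited −log10 q-value accompany each region, and signal alone was used. Its unit is not stated, and lists differ in scale (medians 35.5 in replicate 1 and 27.0 in replicate 3).

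Summits were assigned to the first class that applied among promoter, 5' UTR, coding exon, 3' UTR, non-coding exon, intron and intergenic, using Ensembl release 115 and arms 2L, 2R, 3L, 3R, 4 and X. The host was the gene whose exon held the summit, and its end was the most distal annotated 3' end. Peaks were matched to replicate regions by summits within 100 bp. Windows of 100 bp to each side were tiled every 50 bp over each exon kind, excluding promoters. For all exonic peaks together, window shares of the kinds were averaged with the kinds' numbers of peaks as weights. Undetermined bases were left out of base shares. Motifs were consensus letters searched on both strands. Coordinates count from 1.

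The members, the 14 gene lists and the 15 motifs were chosen with earlier results of these data known. Genes named were the 6 of highest mean percentile per kind, all coding members, 3 peaks on each side of the 250 bp limit and listed hosts. Genes with motif matches or several peaks, and the printed motif sequences, were chosen after their values were seen. Depth is unknown; Wilson intervals have 95% confidence, and a count of 0 is given the limit of 3 counts. Classes, distances, motif search and matching were tested on simulated data, and 68 of 68 checks were recovered. Alternatives were other promoter sizes, summits, exon orders, gene ends, windows, matches and single replicates. Versions were pandas 2.3.3, numpy 2.4.6, matplotlib 3.10.9 and scipy 1.17.1, under Python 3.11.15.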

Additional observations from a re-analysis of the deposited data

How the results depend on the processing

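Depth is unknown, the members share 1 control alignment, and counts of coding peaks and motif matches are small. No paired analysis was possible because there was a single group. With promoters drawn to 500 bp, 41 peaks in 5' UTRs and 46 in non-coding exons were left. Drawn to 1000 bp, 119 exonic peaks were left, with 11 in 5' UTRs and 29 in non-coding exons. By construction the 139 members within 1000 bp of a TSS drop out. Coding and 3' UTR counts stayed within 1.5 times of the values given at both sizes. Asking that the summit be exonic in every transcript left 34 in 5' UTRs. The strongest 3422 peaks held 96 members, 31 in 5' UTRs, 12 coding, 23 in 3' UTRs and 30 non-coding. Using each replicate's own strongest 6844 regions gave 247 to 258 members.

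Median distances to the nearest transcript end of any gene were 2438 bp in 5' UTRs, 2021 bp in coding exons, 190 bp in 3' UTRs and 613 bp in non-coding exons. To the nearest transcript end of the host they were 206 bp in 3' UTRs and 718 bp in non-coding exons. These strongest peaks gave 11313 bp in 5' UTRs and 825 bp in non-coding exons, and peak midpoints 804 bp in non-coding exons. A midpoint can differ from the summit only where the summit is off the centre of its region. Single replicates gave 6863 to 9482 bp in 5' UTRs, 346 to 480 bp in 3' UTRs and 782.5 to 785 bp in non-coding exons. The cause was not tested.

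The log2 ratio of exonic over promoter signal was -0.0688 as percentiles, and -0.25 to -0.16 in single replicates. For coding peaks alone it was 0.08 over both replicates, -0.03 in replicate 3 and 0.05 in replicate 1, so their place relative to promoters is not settled. Median G+C of exonic peaks was 42.6% within 50 bp, 41.1% within 200 bp and 41.8 to 42.0% in single replicates, an alternative added after seeing the data. The CTCF share was 4.26% within 50 bp and 8.53% within 200 bp. Of 169 values under alternatives, 99 stayed within the limits set for a change and 70 moved. Direction changed for the coding signal relative to promoters. It also changed for the distance of 5' UTR peaks to the gene end. That median was 6777 bp over all members, under the 9890 bp of 5' UTR bases, but 11313 bp among the strongest peaks.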
